A study of Mus musculus with 8 samples.

Results

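The growth hormone and IGF axis was described through 10 genes of 22504 in the deposited table: the receptor gene Ghr, the feedback inhibitor Socs2, the ligand Igf1, its circulating partner Igfals, the binding protein genes Igfbp1, Igfbp2, Igfbp3, Igfbp4 and Igfbp7, and the receptor gene Igf1r. They were chosen by symbol, each matched 1 row, and Igf2 was not included. RNA sequencing was done on 8 Fah-/- mice of the 129S4 background, in which tyrosine breakdown lacks its final enzyme and which depend on the drug NTBC, given at 7.5 mg/L as maintenance. In the C 8w group (3 mice) moderate chronic liver injury was induced by lowering NTBC to 2.5% for 8 weeks. The C 8w + A 4w group (3 mice) had the same 8 weeks and then 4 weeks without NTBC, a severe acute injury that the study used to induce hepatocyte senescence, and its samples are called the severe-injury samples below. The C 12w group (2 mice) had 12 weeks of moderate chronic injury, and its tissue is labelled tumor where that of the other groups is labelled liver. No group of uninjured or Fah-competent mice was analysed here, so every level is relative to another injured liver, and age and sex were not given in the sources used here.

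Growth hormone from the pituitary binds its receptor on hepatocytes, where JAK2 phosphorylates STAT5, and STAT5 drives Igf1, Igfals and Socs2. Most circulating IGF1 is made by the liver and travels in a complex with IGFBP3 and the acid-labile subunit encoded by Igfals. The other binding proteins hold IGF1 in smaller complexes, and IGFBP1 is known for its acute control by insulin and by FOXO1. Adult hepatocytes carry very little IGF1 receptor, so that the hormone made in the liver acts mainly elsewhere. The temporal pattern of growth hormone also sets which genes of the mouse liver are expressed more in males or in females.

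Some facts about the samples bear on all results. The labels' extraction text names retinas, but 0 of 6 retina markers reached an FPKM of 1 in any sample, and 7 of the 8 hepatocyte markers did so in all of them. The remaining hepatocyte marker, Alb, was listed at 0 in all C 8w and C 12w samples and lay between 12946 and 16950 in the severe-injury samples. Those samples also carry another series of sample codes than the other 5, so a difference in handling and the treatment cannot be told apart. Next, 4 genes of the Y chromosome (Ddx3y, Uty, Kdm5d and Eif2s3y, chosen after other values were seen) were above 0 in severe-injury replicates 97 and 98, with summed FPKM of 43.4 and 38.8, and at 0 in replicate 96 and in all samples of the other groups. Because several genes of this axis are sex-dependent, a fit with a term for Y-linked transcripts was added, in which severe injury is in effect represented by replicate 96. Without further scaling the median log2 fold change over all genes tested was 0.12 for severe injury against C 8w, 0.12 for C 12w against C 8w and 0.01 for severe injury against C 12w. In bulk tissue, fewer cells of a type and less RNA per cell cannot be told apart.

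The short stretches of promoter that follow are shown because they hold the letters of motifs known from this axis, the STAT5 motif TTCNNNGAA in Igfals and the core AAACAA of the insulin response element, a FOXO motif, in Igfbp1. They are RefSeq sequences of GRCm38.p6, 5′ to 3′ on the plus strand, with the motif in capitals. The Igfals stretches lie at chr17:24877598-24877627 and chr17:24878163-24878192, upstream of 2 annotated starts, and the Igfbp1 stretch at chr11:7197587-7197776, from 200 to 11 bases before its start and outside its exons.
Igfals, the first start: gatctataatTTCTCAGAAaagaggctgag
Igfals, the second start: ctgccaggtgTTCCTAGAAgaggccctggg
Igfbp1: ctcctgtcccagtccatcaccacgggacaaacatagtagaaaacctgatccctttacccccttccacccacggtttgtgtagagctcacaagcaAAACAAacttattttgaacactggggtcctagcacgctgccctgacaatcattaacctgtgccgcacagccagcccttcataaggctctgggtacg
The motifs were searched on both strands of the 250 bases before each start. Of the members, 9 had such a window, 13 windows in all, and Socs2 had none. TTCNNNGAA was in 2 of the 3 Igfals windows and in no window of another member, against 7.02% of 32851 mouse windows. The forkhead motif TGTTTAC was in 1 Igfals window, against 3.17%. AAACAA, added after the sequences had been seen, was in the Igfbp1 window and in 1 of the 2 Igfbp2 windows, against 18.3%, and can overlap TGTTTAC on the opposite strand. In the annotation 188 of the 250 bases of the first Igfals window and 16 of the second lie in exons of Igfals, and a match is no evidence of binding.

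The main question was how the axis differed after severe injury had followed chronic injury. In the severe-injury samples the receptor gene, the ligand gene and the gene of the circulating complex were all lower than in C 8w, and Igfals had the largest fall of the members. Igfbp4 was also lower and Igfbp3 was slightly higher. Of the 9 members tested, 4 were lower and 1 was higher, against 14.1% lower and 25.3% higher among all 10244 genes tested, and the median log2 fold change of the 9 was -0.62. All differences are on the scale of log2(FPKM + 1), tested with limma and adjusted over all genes.

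Ghr, the growth hormone receptor, had FPKM values of 34.0, 29.2 and 26.6 in C 8w, 8.18, 13.8 and 11.5 in the severe-injury samples, and 47.0 and 30.1 in C 12w. The 3 severe-injury samples lay below all others. The mean was 11.2 ± 2.83 (SD, n = 3) against 29.95 ± 3.76 in C 8w, 2.68-fold lower, with a log2 fold change of -1.37 ± 0.22 (SE, adjusted p = 0.00178, limma). Over every alternative and left-out sample its adjusted p ran from 0.000572 to 0.0115.

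Igf1, the ligand, had values of 19.3, 13.4 and 10.3 in C 8w, 1.38, 5.93 and 3.68 in the severe-injury samples, and 33.5 and 13.7 in C 12w. The severe-injury samples lay below all others, and replicate 96, the sample of its group without Y-linked transcripts, was the lowest of all 8. The mean of 3.66 ± 2.28 (SD, n = 3) was 3.92-fold lower than the 14.3 ± 4.61 of C 8w, a log2 fold change of -1.81 ± 0.44 (SE, adjusted p = 0.0123, limma). Without C 8w replicate 1 the adjusted p was 0.0546, the highest of a range that began at 0.00475. With the Y-linked term the log2 fold change was -2.65 ± 0.50 (SE, adjusted p = 0.00869, limma). The kit does not mark strand, and an antisense gene, Igf1os, overlaps Igf1, so reads of the 2 could not be separated.

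Igfals, which encodes the acid-labile subunit, had values of 27.7, 18.1 and 14.7 in C 8w, 1.34, 3.62 and 1.70 in the severe-injury samples, and 33.1 and 12.5 in C 12w. Its highest value after severe injury was well below the lowest of the other groups. The mean fell 9.11-fold between the groups, from 20.2 ± 6.75 to 2.22 ± 1.22 (SD, n = 3), with a log2 fold change of -2.74 ± 0.39 (SE, adjusted p = 0.00100, limma). The adjusted p lay between 0.000177 and 0.0066 over all alternatives and left-out samples. The ratio of Igf1 to Igfals, given without a test, was 0.696 to 0.741 in C 8w, 1.03 to 2.17 in the severe-injury samples, and 1.01 and 1.10 in C 12w.

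Socs2, a STAT5 target that damps the receptor's signal, did not pass the test in any comparison. Its values were low, at 2.12, 1.83 and 1.95 in C 8w, 1.66, 1.25 and 1.28 in the severe-injury samples, and 1.69 and 1.17 in C 12w. The C 8w samples were the 3 highest. Against C 8w, the log2 fold change in the severe-injury samples was -0.31 ± 0.13 (SE, adjusted p = 0.0792, limma). It passed without either C 12w sample (adjusted p = 0.0343 without replicate 2 and 0.0334 without replicate 3), with only the 2 groups compared and with median-ratio or quantile scaling, over a range of 0.0334 to 0.519 in which the highest value came with the Y-linked term.

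**Figure D1:**
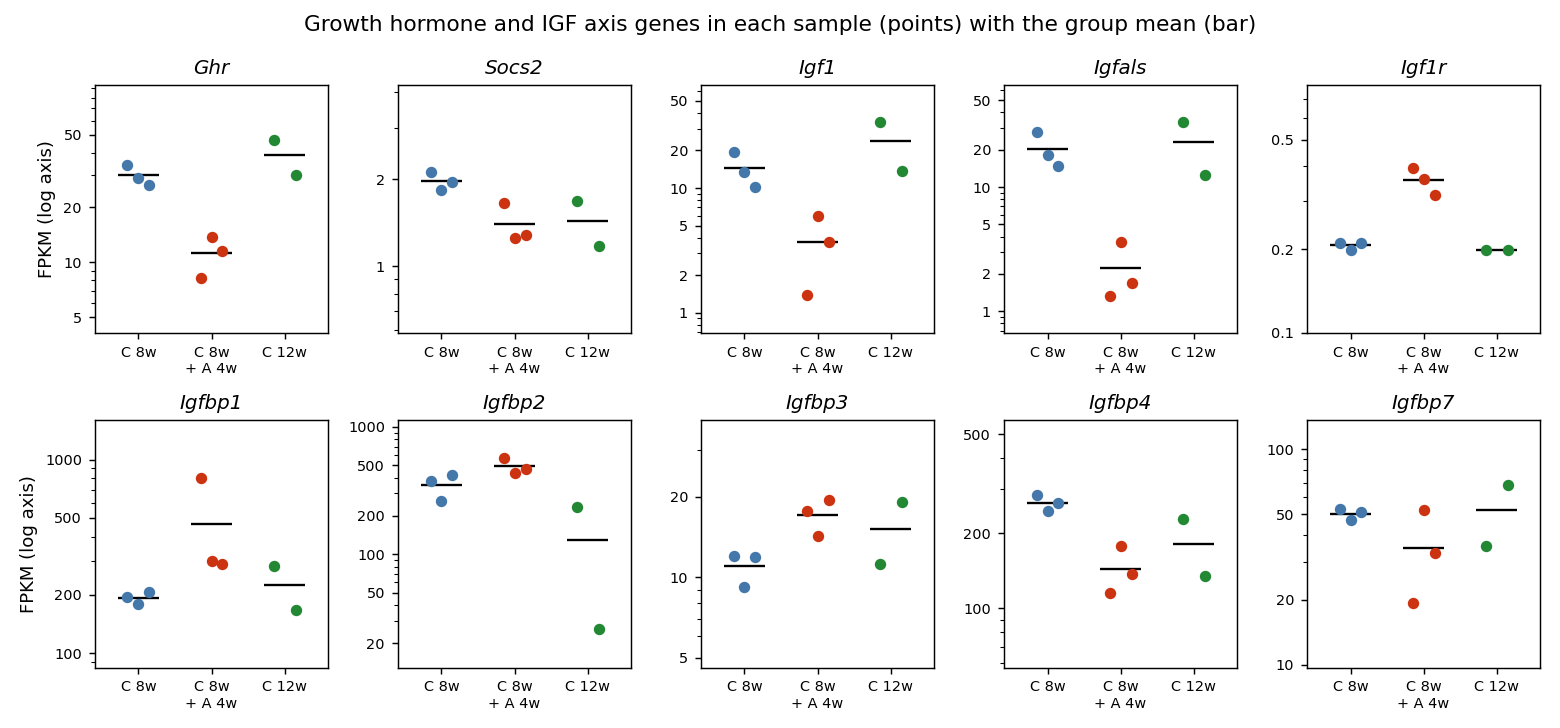
FPKM of the 10 genes in each of the 8 samples on log axes, with points for samples, ordered by replicate within a group, and a bar for the group mean. The 3 samples of C 8w + A 4w (red) sat below all others for Ghr, between 8.18 and 13.8, for Igf1, between 1.38 and 5.93, and for Igfals, between 1.34 and 3.62.

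The binding proteins did not share a direction. Igfbp4 fell, Igfbp3 passed the test as higher but did not hold under most alternatives, and Igfbp1, Igfbp2 and Igfbp7 did not pass it. Igfbp4, which binds IGF1 and is cleaved by PAPP-A, had values of 285, 245 and 264 in C 8w, 115, 177 and 137 in the severe-injury samples, and 227 and 135 in C 12w. All 5 samples outside C 8w were lower than its 3 samples. The log2 fold change in the severe-injury samples was -0.90 ± 0.22 (SE, adjusted p = 0.0141, limma), 1.85-fold lower in the means. It missed the threshold without C 8w replicate 1 (adjusted p = 0.0582) and without severe-injury replicate 96 (adjusted p = 0.0506), within a range that began at 0.00272.

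Igfbp3, the carrier in the large circulating complex, is made in the liver mainly by cells other than hepatocytes. It had values of 12.0, 9.16 and 11.9 in C 8w, 17.8, 14.3 and 19.5 in the severe-injury samples, and 11.2 and 19.1 in C 12w. The first 2 groups did not overlap, and the log2 fold change was 0.60 ± 0.20 (SE, adjusted p = 0.0475, limma). The call was lost under median-ratio scaling (adjusted p = 0.108), total scaling (0.106), quantile normalization (0.144), no filter (0.0897), the limit on shared sequence (0.0518) and the Y-linked term (0.154). It was also lost without C 8w replicates 1, 2 or 3 (adjusted p of 0.0885, 0.152 and 0.0829) and without severe-injury replicates 96 or 98 (0.116 and 0.141), over a range of 0.0108 to 0.154.

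Igfbp1, the binding protein gene that insulin represses, was at 194, 179 and 207 in C 8w, 804, 298 and 288 in the severe-injury samples, and 281 and 168 in C 12w. Every severe-injury sample was above every other sample, and replicate 96 was 2.79-fold above the lowest of its own group. The log2 fold change was 1.08 ± 0.38 (SE, adjusted p = 0.0526, limma), just short of the threshold. It passed with the Y-linked term, at 2.05 ± 0.29 (SE, adjusted p = 0.00261, limma), with quantile normalization (adjusted p = 0.0415) and with only the 2 groups compared (0.0344). It also passed without severe-injury replicates 97 or 98 (0.0462 and 0.0442) and without C 12w replicates 2 or 3 (both 0.0344), and the highest adjusted p of any alternative was 0.131. Without replicate 96 the log2 fold change was 0.60 (adjusted p = 0.0804, limma), and the fit with the Y-linked term rests on that replicate.

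Igfbp2, abundant in fetal and injured liver, was at 379, 261 and 417 in C 8w, 569, 432 and 467 in the severe-injury samples, and 234 and 25.7 in C 12w. The severe-injury samples held the 3 highest values, and the 2 tumor samples differed 9.12-fold from each other. The log2 fold change against C 8w was 0.49 ± 0.65 (SE, adjusted p = 0.576, limma), with a 95% interval of -1.0 to 1.99. Igfbp7, a low-affinity IGF binder secreted by vascular and stellate cells, was at 52.8, 46.9 and 50.9 in C 8w, 19.3, 52.3 and 33.0 in the severe-injury samples, and 35.7 and 68.6 in C 12w. The groups overlapped, and the log2 fold change of -0.62 ± 0.35 (SE, adjusted p = 0.186, limma) passed without severe-injury replicate 97 (adjusted p = 0.0450) and with the Y-linked term (0.0346), which rests on replicate 96. Without replicate 96 it was -0.26 (adjusted p = 0.521, limma), the highest adjusted p of any alternative.

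**Figure D2:**
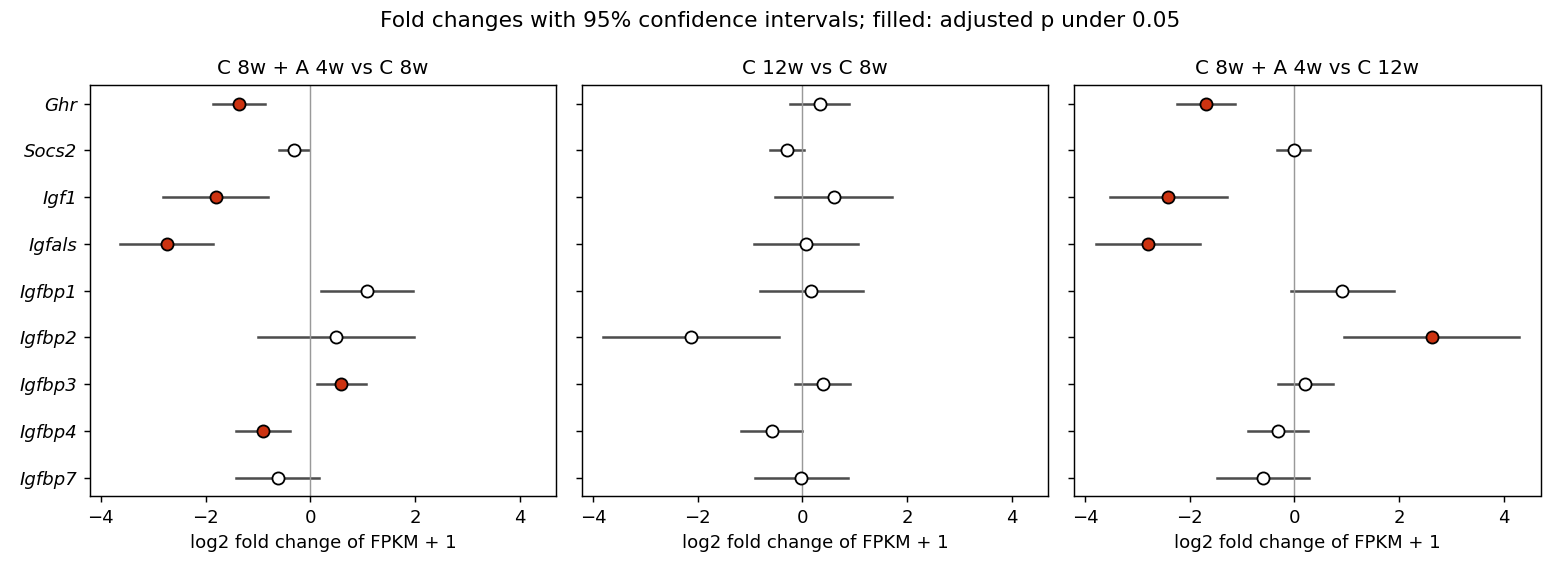
Log2 fold change of FPKM + 1 (x axis) for the 9 genes tested, with 95% confidence intervals, in the 3 comparisons, with filled points for an adjusted p under the threshold. Ghr, Igf1 and Igfals were filled on the left in both comparisons of C 8w + A 4w, down to -2.80 for Igfals, and no point was filled in C 12w against C 8w.

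Igf1r, the IGF1 receptor gene, was very low in all samples. Its FPKM was 0.211, 0.199 and 0.211 in C 8w, 0.394, 0.359 and 0.314 in the severe-injury samples, and 0.199 in both C 12w samples. It did not reach an FPKM of 1 in any sample and was not tested with the other members. In a fit without a filter on low values it was higher in the severe-injury samples than in C 8w by a log2 fold change of 0.17 ± 0.03 (SE, adjusted p = 0.00667, limma) and than in C 12w by 0.18 ± 0.03 (adjusted p = 0.00943). The ratio of the means was 1.72 against C 8w.

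In terms of level, which FPKM allows to compare between genes because it is per length, the means of Igfbp1, Igfbp2, Igfbp4 and Igfbp7 stood above that of the ligand in every group, while that of Igfbp3 did so after severe injury and lay below it in C 8w and C 12w. In C 8w the order of the means ran from Igfbp2 (352) through Igfbp4 (265), Igfbp1 (193), Igfbp7 (50.2), Ghr (29.95), Igfals (20.2), Igf1 (14.3), Igfbp3 (11.02) and Socs2 (1.97) to Igf1r (0.207). Neighbours whose ranges overlapped were Igfbp2 with Igfbp4, Ghr with Igfals, Igfals with Igf1, and Igf1 with Igfbp3. Within each C 8w sample these pairs kept the order of the means, except that Igfbp3 was above Igf1 in replicate 3. After severe injury Igfbp1 stood above Igfbp4 and Igfbp3 above Ghr, without overlap in either case. The ranges of Igf1 and Igfals overlapped near the bottom of the order, with Igf1 the higher within each sample.

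The makeup of the binding protein transcripts differed accordingly. Igfbp1 made up 21.0% to 24.2% of the summed FPKM of the 5 binding protein genes in C 8w, 30.4% to 52.7% in the severe-injury samples, and 35.6% and 40.3% in C 12w. Igfbp4 made up 27.8% to 33.0% in C 8w, 7.56% to 18.2% in the severe-injury samples, and 28.8% and 32.5% in C 12w. The share of Igfbp4 was thus lowest after severe injury, and that of Igfbp1 was lowest in C 8w. The number of Igfbp1 transcripts per Igf1 transcript, as a ratio of FPKM, was 10.02 to 20.2 in C 8w, 50.3 to 584 in the severe-injury samples, and 8.38 and 12.2 in C 12w.

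**Figure D3:**
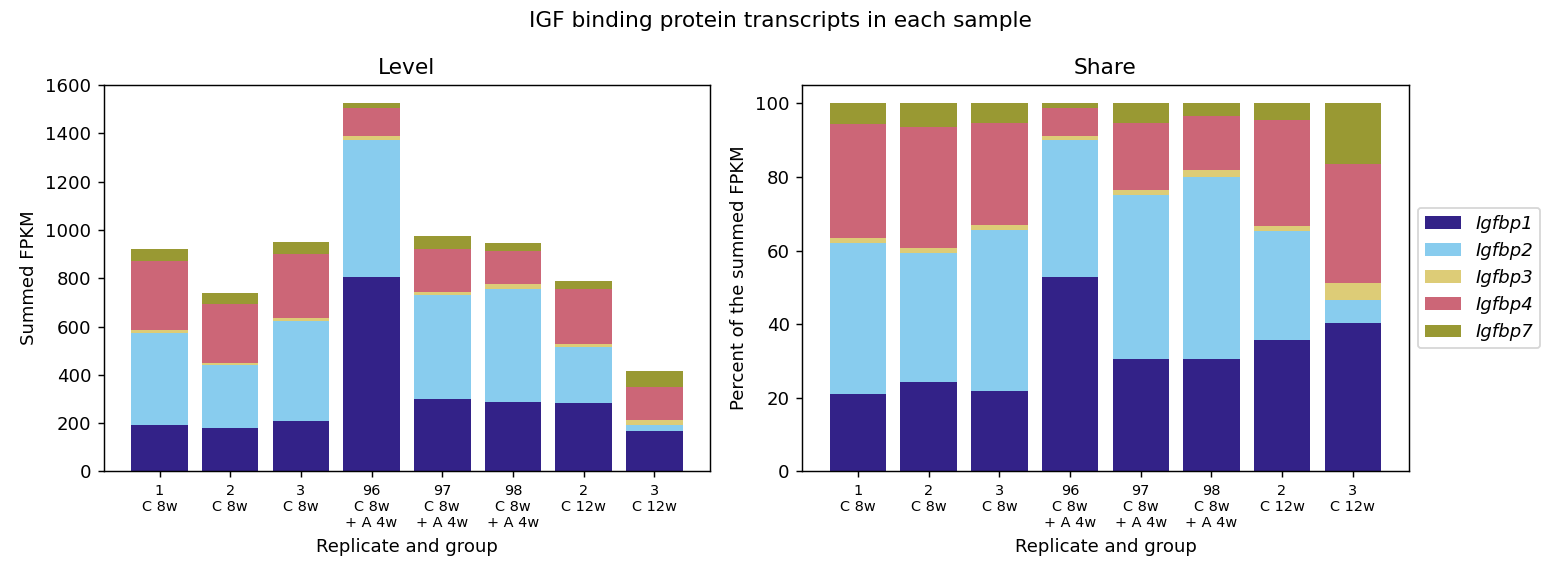
Summed FPKM of the 5 binding protein genes (left) and the percent of that sum from each gene (right) in each sample, labelled by replicate and group. Replicate 96 had the highest sum, 1525, with 52.7% from Igfbp1, and C 12w replicate 3 the lowest, 416, with 6.17% from Igfbp2.

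Markers of some other cell types differed between these groups. The summed FPKM of 6 liver endothelial markers was 41.5 to 45.5 in C 8w, 19.5 to 36.9 in the severe-injury samples and 23.4 to 28.2 in C 12w, with Kdr, Stab2 and Clec4g lower and Lyve1 higher in the severe-injury samples than in C 8w. The sum of 6 macrophage markers was 71.3 to 83.1, 46.9 to 182 and 43.4 to 69.3 in the same order, and that of 6 stellate cell and fibroblast markers was 13.5 to 15.4, 14.0 to 27.96 and 16.1 to 29.1. None of the 6 macrophage markers and none of the 5 stellate cell and fibroblast markers tested passed the test in either comparison with C 8w. The sum of 6 cholangiocyte markers was 9.51 to 15.2 in C 8w and 26.3 to 32.8 in the severe-injury samples, without overlap. Most of each sum was Spp1, at 8.26 to 11.8 and 16.6 to 23.6 in the same order. Epcam, another of the 6, was at 0.244 to 0.888 in C 8w and 3.07 to 5.99 in the severe-injury samples. As it passed the filter only through samples outside C 8w, no test is given for Epcam. Of the 7 hepatocyte markers tested, 1 was higher and 2 were lower in the severe-injury samples than in C 8w, where 25.3% of all genes were higher and 14.1% lower. The sum of these 7, without Alb, was 9084 to 11612 in C 8w, 9856 to 11811 in the severe-injury samples and 8871 to 13971 in C 12w, and with Alb it was 22946 to 28760 in the severe-injury samples and the same as before in the other groups. Most of the sum without Alb was Ttr and Apoa1, which moved apart. From C 8w to the severe-injury samples the mean of Ttr went from 5794 to 3461 and that of Apoa1 from 3114 to 6365. The median log2 fold change of the 7 was -0.77 in that comparison. The part of all these cell type markers in the levels of the members was not tested.

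The comparison of C 12w with C 8w asked how the axis differed in tumor tissue after longer chronic injury. None of the members passed the test: 0 of 9, where 12.2% of all genes tested were higher and 6.98% lower, with 2 members at an unadjusted p under 0.05 by limma, as were 37.5% of all genes. The 2 were Igfbp2, with a log2 fold change of -2.13 ± 0.73 (SE, adjusted p = 0.0722, limma), and Igfbp4, with -0.59 ± 0.25 (SE, adjusted p = 0.126, limma). Ghr differed by 0.33 (95% interval -0.23 to 0.88), Igf1 by 0.60 (-0.52 to 1.72) and Igfals by 0.06 (-0.93 to 1.06) on the log2 scale, and all 3 intervals included 0. Socs2 was at -0.30, Igfbp1 at 0.17, Igfbp3 at 0.39 and Igfbp7 at -0.018 (adjusted p of 0.162, 0.793, 0.246 and 0.976, limma).

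The 2 C 12w samples differed from each other by more than the median gene did for each of the 9 members. The absolute difference between them was 0.29 on the log2 scale for the median gene, and 1.23 for Igf1, 1.34 for Igfals and 3.14 for Igfbp2. Replicate 2 had the highest Ghr, Igf1 and Igfals of all 8 samples, while replicate 3 had the lowest Igfbp2 and Socs2 and the highest Igfbp7. Replicate 3 also had the highest summed cholangiocyte markers, at 339 against 28.2 in replicate 2 and 9.51 to 15.2 in C 8w, whose part was not tested. Most of each sum was Spp1, at 311 in replicate 3, 22.2 in replicate 2 and 8.26 to 11.8 in C 8w. In replicate 3, Sox9 (19.9), Epcam (5.82), Krt7 (1.17) and Cftr (0.0262) were also above every C 8w sample. Krt19 (1.06) was within the C 8w range of 0.354 to 1.43. Without replicate 2, 36.1% of all genes and 4 of the 9 members passed: Igfbp2 with a log2 fold change of -3.70 (adjusted p = 0.000148, limma), Igfbp4 with -0.96 (0.0149), Igfbp3 with 0.75 (0.0248) and Socs2 with -0.45 (0.0432). Without replicate 3, 14.9% of all genes and 0 of the 9 members passed, and the same 4 were at -0.56, -0.21, 0.028 and -0.14 (adjusted p of 0.211, 0.571, 0.946 and 0.546, limma). The adjusted p of these 4 reached up to 0.216, 0.571, 0.946 and 0.613 over the other alternatives and left-out samples, and in both fits the lone remaining sample is assumed to vary like the other groups.

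The comparison of severe injury with C 12w set the treatments of equal total length against each other, and it shares its samples with both comparisons above. Ghr, Igf1 and Igfals were lower and Igfbp2 was higher after severe injury, 3 members lower and 1 higher of 9, against 15.4% lower and 17.4% higher among all genes tested. The log2 fold changes were -1.69 ± 0.24 for Ghr (SE, adjusted p = 0.00139, limma), -2.41 ± 0.49 for Igf1 (adjusted p = 0.00687) and -2.80 ± 0.43 for Igfals (adjusted p = 0.00203). In the means these were 3.45-fold, 6.46-fold and 10.3-fold lower, and the samples did not overlap. Igfbp2 differed by 2.62 ± 0.73 (SE, adjusted p = 0.0257, limma), and by 4.19 without C 12w replicate 2 and 1.05 without replicate 3 (adjusted p of 2.30e-05 and 0.0229). The call of Igfbp2 was lost without severe-injury replicates 96 or 98 (adjusted p of 0.0686 and 0.0629), with no filter (0.0627), with only the 2 groups compared (0.0723) and with the Y-linked term (0.0913), over a range that began at 2.30e-05. Igfbp1 was 2.06-fold higher in the means but did not pass, with a log2 fold change of 0.91 ± 0.43 (SE, adjusted p = 0.136, limma), and was at 1.88 with the Y-linked term (adjusted p = 0.00583) and at 0.43 without replicate 96 (adjusted p = 0.235). Igfbp3, Igfbp4, Igfbp7 and Socs2 were at 0.21, -0.31, -0.60 and -0.017 (adjusted p of 0.519, 0.374, 0.267 and 0.940, limma), and Igfbp7 alone of them passed with that term, at -1.31 (adjusted p = 0.0496), and was at -0.25 without replicate 96 (adjusted p = 0.607).

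Around the members, 60 further genes of the axis were grouped in 5 lists, of which 44 genes were tested. Of these, 8 were higher and 13 lower in the severe-injury samples than in C 8w, 18.2% and 29.5% of the 44 against 25.3% and 14.1% of all genes tested. In C 12w against C 8w, 6 were higher and 12 lower, 13.6% and 27.3% against 12.2% and 6.98%. In the severe-injury samples against C 12w, 8 were higher and 6 lower, 18.2% and 13.6% against 17.4% and 15.4%. With the Y-linked term the counts in the first comparison were 4 and 9, and the shares of all genes fell to 16.6% and 10.7%. The counts hold some genes that passed the filter through the groups where they were high, as given with their lists.

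Among 12 tested genes of growth hormone signal transduction, 2 were higher and 4 lower in the severe-injury samples than in C 8w (16.7% and 33.3%, against 25.3% and 14.1% of all genes), with a median log2 fold change of -0.13. Stat5a, which carries the receptor's signal to the nucleus, was at 3.45, 3.49 and 3.82 in C 8w and 1.57, 1.83 and 1.71 in the severe-injury samples, a log2 fold change of -0.76 ± 0.10 (SE, adjusted p = 0.000643, limma). Bcl6, a repressor that opposes STAT5 at many liver genes, fell by 0.66 (adjusted p = 0.0418). Socs3, an inhibitor of cytokine receptors, rose by 0.87 (adjusted p = 0.0228), and the kinase gene Jak2 rose by 0.47 (adjusted p = 0.0245). With the Y-linked term Stat5a alone remained past the threshold in this list and comparison. The 2 samples of C 12w had the highest Bcl6, 10.7 and 17.2 against 3.19 to 5.29 in C 8w, a log2 fold change of 1.44 ± 0.24 (SE, adjusted p = 0.00765, limma), and Stat5a fell by 0.41 there (adjusted p = 0.0354). Against C 12w, Bcl6 fell by 2.10 (adjusted p = 0.000459, limma) and Stat5a by 0.35 (adjusted p = 0.0409) in the severe-injury samples, and with the Y-linked term Bcl6 passed (adjusted p = 0.00797) and Stat5a did not (adjusted p = 0.0824). Of the transcripts' 50-base windows, 8.52% in Stat5a occur in another gene, so its reads may be shared.

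Of 15 genes of IGF and insulin receptor signalling, all tested, 3 were higher and 1 lower in the severe-injury samples than in C 8w (20.0% and 6.67%, against the same shares of all genes), with a median of -0.02. The kinase genes Akt2 and Pdpk1 rose by 0.75 (adjusted p = 0.00203, limma) and 0.65 (adjusted p = 0.0288), and Foxo1, a factor that insulin signalling keeps out of the nucleus, fell by 0.42 (adjusted p = 0.0210). Akt2 also passed with the Y-linked term (adjusted p = 0.0159, limma), and Pdpk1 and Foxo1 did not (adjusted p of 0.123 and 0.0801). In C 12w 3 of them rose and 3 fell relative to C 8w, where 12.2% and 6.98% of all genes did. Grb14, an inhibitor of the insulin receptor, was at 5.06 to 5.80 in C 8w and 15.8 and 18.4 in C 12w, a log2 fold change of 1.47 ± 0.18 (SE, adjusted p = 0.00258, limma), and Igf2r, which clears IGF2, rose by 0.89 (adjusted p = 0.0424). Grb10, a further adaptor of this family, fell by 0.83 (adjusted p = 0.0233), and Foxo3 fell by 0.60 (adjusted p = 0.0317). Against C 12w, 4 were higher and 2 lower in the severe-injury samples (17.4% and 15.4% of all genes), among them Akt2 and the adaptor gene Grb2, higher by 1.15 and 0.68 (adjusted p of 0.000525 and 0.00278, limma), and Grb14 and Pik3r1, which fell by 1.68 and 0.69 (adjusted p of 0.000319 and 0.00555).

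Of 8 genes of other IGF binding proteins and their proteases, 2 were tested. Both passed the filter through the severe-injury and C 12w samples, with 0 of the 2 at an FPKM of 1 in all C 8w samples, so their number says nothing about the list. Igfbp6, a binding protein that prefers IGF2, was at 0.981, 0.981 and 1.68 in C 8w, 69.6, 83.5 and 72.6 in the severe-injury samples, and 10.1 and 5.49 in C 12w. The 3 groups were fully separated. The log2 fold change was 5.12 against C 8w and 3.16 against C 12w, and that of C 12w against C 8w was 1.96. No test is given for Igfbp6, because only 1 C 8w sample was at an FPKM of 1 or more and other groups took it past the filter. Igfbp5 was at 0.597, 0.275 and 0.417 in C 8w, 1.29, 3.68 and 2.74 in the severe-injury samples, and 0.533 and 1.18 in C 12w, and no test is given for it because only samples outside C 8w took it past the filter.

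Liver genes whose sex bias depends on growth hormone were divided by that bias. Of 10 female-biased genes tested of 14, 7 were lower and 0 higher in the severe-injury samples than in C 8w, with a median log2 fold change of -2.98, and the same counts, with a median of -3.09, were found for C 12w. Of all genes tested 14.1% and 6.98% were lower in these comparisons. All 10 were at an FPKM of 1 or more in every C 8w sample, and 3 were below it in all severe-injury samples and 2 in both C 12w samples, so the filter kept genes that were high in C 8w and the counts and medians are a description. Both comparisons share the C 8w samples. With the Y-linked term, in which severe injury rests on replicate 96, the median for severe injury against C 8w was -3.10. The term cannot alter the log2 fold changes of C 12w against C 8w, because no sample of these groups had Y-linked transcripts. Cyp17a1, a steroid hydroxylase, was at 123, 88.4 and 55.8 in C 8w, 0.726, 0.946 and 0.304 in the severe-injury samples, and 13.5 and 2.59 in C 12w. Its log2 fold change in the severe-injury samples was -5.71 against C 8w. No test is given for Cyp17a1, because only C 8w and C 12w samples took it past the filter. In C 12w the sulfotransferase gene Sult2a1 fell by 5.07 (adjusted p = 0.000287, limma). Neither C 12w sample and 2 of the 3 severe-injury samples had Y-linked transcripts. Against C 12w, Sult2a1 rose by 2.59 (adjusted p = 0.000618, limma) in the severe-injury samples, and the thioesterase gene Acot3 fell by 0.85 (adjusted p = 0.0489). Cyp17a1 fell by 2.14 there, again without a test. With the Y-linked term, which rests on replicate 96, Sult2a1 was at 2.54, Cyp17a1 at -2.06 and Acot3 at -1.18, and the call of Acot3 was lost.

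Of 10 male-biased genes, 5 were tested, and 1 was higher and 1 lower in each comparison with C 8w, against 25.3% higher and 14.1% lower of all genes after severe injury and 12.2% and 6.98% in C 12w. In the severe-injury samples against C 8w, Egfr, the epidermal growth factor receptor gene, rose by 0.71 (adjusted p = 0.00554, limma) and Cyp7b1, an oxysterol hydroxylase, fell by 0.94 (adjusted p = 0.0256). In C 12w against C 8w, Egfr rose by 0.86 (adjusted p = 0.0107, limma) and the P450 gene Cyp2d9 fell by 1.08 (adjusted p = 0.0152), and Cyp2d9 was the 1 gene that differed between severe injury and C 12w, higher by 1.35 in the severe-injury samples (adjusted p = 0.00272). Cyp7b1 also passed there with the Y-linked term, at -1.30 (adjusted p = 0.0260, limma). Some of the P450 and sulfotransferase genes share sequence with relatives, 33.2% of the windows of Sult2a1 and 21.8% of those of Cyp2d9, so that their reads may be divided among copies, whereas Igfbp6 and the members, apart from Igfbp4, Igfbp7 and Socs2 at 1.72% to 4.58%, had none or few.

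**Figure D4:**
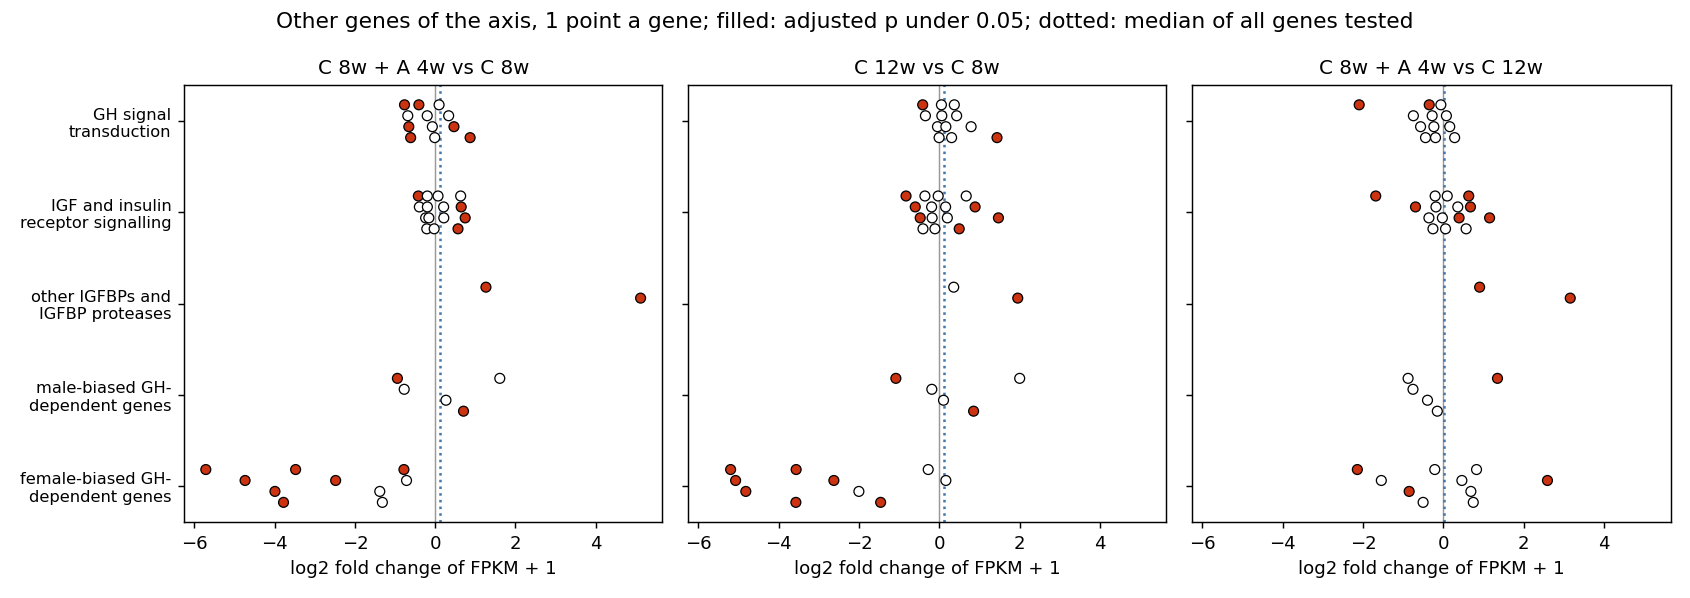
Log2 fold change of FPKM + 1 (x axis) of the 44 tested genes of 5 lists in the 3 comparisons, with 1 point for each gene, filled for an adjusted p under the threshold, and a dotted line at the median of all genes tested. Cyp17a1 of the female-biased genes was the point at -5.71 on the left in the comparison of the severe-injury samples with C 8w, and Igfbp6 was the point at 5.12 on the right.

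The genes whose profile over the 8 samples was nearest to that of Igf1, by the root mean square difference of log2(FPKM + 1) after centring each gene, were Apon (0.20), Gamt (0.27), Proz (0.28), Hc (0.29) and F9 (0.32). Apon encodes an apolipoprotein, Gamt an enzyme of creatine synthesis, Proz and F9 clotting proteins and Hc a complement component. Apon, the nearest, was at 74.5, 50.6 and 49.2 in C 8w, 9.56, 36.5 and 23.9 in the severe-injury samples, and 138 and 66.7 in C 12w. Like Igf1, it was lowest in severe-injury replicate 96 and highest in C 12w replicate 2. Among the 10243 other genes tested, Ghr was the 18th and Igfals the 28th nearest, at 0.41 and 0.45, while Igfbp1 and Igfbp2 were among the farthest, at ranks 9766 and 10044. These distances describe 8 samples that share their groups, and carry no test.

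**Figure D5:**
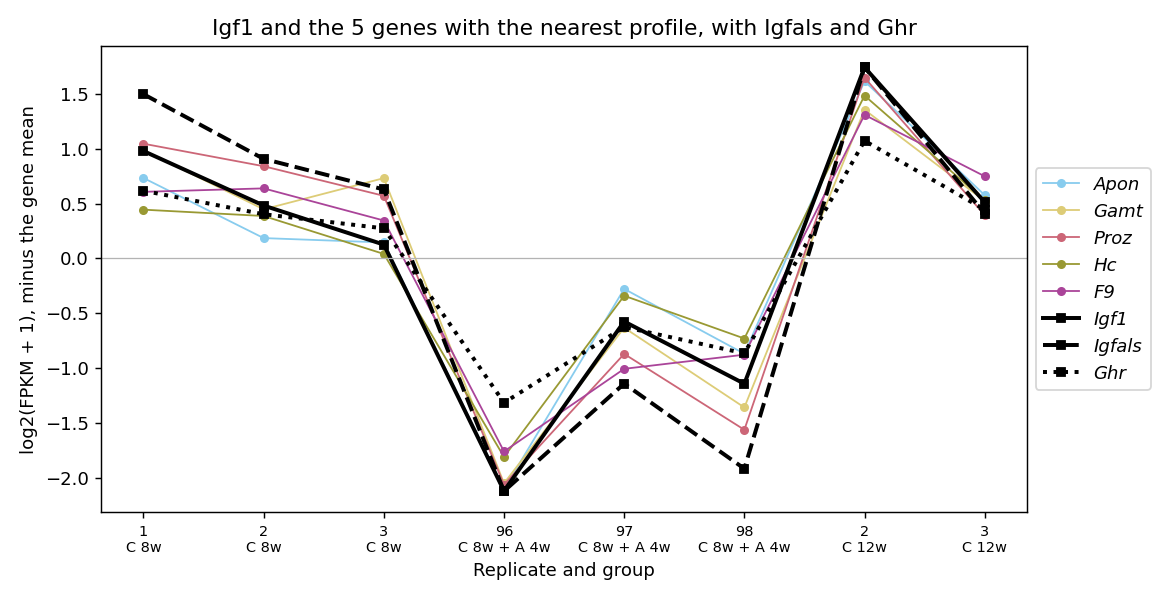
Centred log2(FPKM + 1) of Igf1 (thick solid line), Igfals (dashed), Ghr (dotted) and the 5 genes nearest to Igf1 (coloured) in each sample, labelled by replicate and group. All 8 genes had their lowest value in C 8w + A 4w replicate 96 and their highest in C 12w replicate 2.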

How the data were processed

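The authors deposited gene-level FPKM values of 8 liver or tumor samples in 1 table of 22504 genes, of which 22314 have a symbol. The submitters' processing notes name Bowtie 0.12.2 and the build mm8, and the quantifier is not given in the sources used here. There were 0 columns from elsewhere. FPKM carries no read counts, and depth judged from the steps of low values was 0.917 to 1.06 times that of the first C 8w sample. That replicates are separate mice rests on their labels.

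Genes that reached FPKM 1 in 4 or more samples (10244) were compared as log2(FPKM + 1), without further scaling, by limma 3.58.1 in R 4.3.3 (lmFit, eBayes with trend, all 8 samples, two-sided, Benjamini-Hochberg, threshold 0.05). Log2 fold changes on this scale understate those of low genes. The test was checked on simulated data, but the outcome is not given here and no result above rests on it. Members and lists were chosen with earlier results of these data known, and the Y-linked term, the crossed pairing and the AAACAA motif after values or sequences were seen. All members are named, as are up to 2 rises and 2 falls per list and comparison, and the 5 genes nearest to Igf1. One gene that this rule names is not reported here. Socs1, Igf1r and other genes below the filter were not tested in the main fit, and Igf1r is given from a fit without a filter. Shared sequence was computed from GENCODE M21 transcripts, as the percentage of 50-base stretches also found in another gene. Promoters are RefSeq windows of GRCm38.p6, and no coordinates of mm8 are given.

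Alternatives were a pseudocount of 0.1, other filters or none, 3 other scalings, eBayes without trend, only the 2 groups compared, a limit of 1 on the log2 fold change, at most 2% shared windows, each sample left out, and the replicate number as a block for C 12w and C 8w. The paper's other assays were not analysed here.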

Additional observations from a re-analysis of the deposited data

How the results depend on the processing

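The number of members called in C 8w + A 4w against C 8w was 5 (39.4% of all genes), and 3 when the log2 fold change had to reach 1 (11.01%). It ranged from 2 to 7 when samples were left out, with 2 without C 8w replicate 1 (24.1% of all genes) and 3 without C 8w + A 4w replicate 96 (30.3%). The number called in C 12w against C 8w was 0 and ranged from 0 to 4 (4 without C 12w replicate 2, with 36.1% of all genes against 19.2%), and that in C 8w + A 4w against C 12w was 4 and ranged from 3 to 4, all with left-out samples. With the Y-linked term the 3 counts were 6, 0 and 5, and those of all genes 27.3%, 18.8% and 23.1%. Of the other genes of the axis, 21, 18 and 14 were called in the 3 comparisons in this order. These became 7, 7 and 7 of 15 tested with a floor of FPKM 10 (all genes 47.3%, 21.8% and 41.6%), 8, 11 and 7 of 44 with that limit on the fold change (11.01%, 5.20% and 11.5%), and 10, 10 and 8 of 25 with at most 2% shared windows (34.7%, 19.6% and 27.97%). The count of 21 became 13 with the Y-linked term, and that of 14 became 9 with only the 2 groups compared, and the cause was not tested. Left-out samples gave 14 to 28, 10 to 22 and 9 to 18, with 24.1% to 50.7%, 6.61% to 36.1% and 24.3% to 41.1% of all genes. The count of 18 was 11 and 10 without C 8w replicates 1 and 3, and that of 14 was 9 without C 8w replicate 1, 2 or 3 or C 8w + A 4w replicate 98.

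The replicate numbers shared by C 12w and C 8w belong to different mice, and the correlation of the 2 pairs' deviations was -0.19, so they do not pair the samples. With the number as a replicate block 0 members, 10 other genes of the axis and 252 of all genes were called, and with the crossed pairing 0, 2 and 16.

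The direction of members that passed no test changed in places. In C 12w against C 8w, the log2 fold change of Igfals was -0.065 with median-ratio scaling and -0.020 with quantile normalization, and that of Igfbp7 was 0.077 with total scaling, 0.054 with quantile normalization and 0.019 with the replicate block, crossed or not. With left-out samples Igf1 ranged from -0.016 to 1.21, Igfals from -0.60 to 0.73, Igfbp1 from -0.20 to 0.54 and Igfbp7 from -0.48 to 0.44. In C 8w + A 4w against C 12w, Socs2 was at 0.14 with the Y-linked term, and with left-out samples Socs2 ranged from -0.17 to 0.14, Igfbp3 from -0.15 to 0.57 and Igfbp4 from -0.69 to 0.061. The share of higher genes among all called went from 64.2% to 48.9% in C 8w + A 4w against C 8w and from 63.6% to 46.4% in C 12w against C 8w with median-ratio scaling, and from 53.1% to 35.9% in C 8w + A 4w against C 12w with total scaling. Ghr, Igf1 and Igfals were lower in both comparisons of C 8w + A 4w under every alternative, and passed the test in all of them except Igf1 without C 8w replicate 1.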
